A study of Mus musculus with 9 samples.

Results

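The microRNAs described here lie in the proximal part of the imprinted Dlk1-Gtl2 region of mouse chromosome 12. They were chosen by name, as the probes for miR-127, miR-136, miR-337, miR-341, miR-370, miR-431, miR-433 and miR-434. There were 5 such probes among the 206 listed, under the names miR127, miR136, miR337, miR341 and miR370, and none for the other 3 microRNAs. MiR-136 had no value on any of the 9 arrays, so its level was not analysed here. The other 4 microRNAs had values in every group and all 4 entered the tests, together with 83 other mouse probes.

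An imprinted region is read from only one of the parental chromosomes. At Dlk1-Gtl2 the maternal chromosome produces long noncoding transcripts, among them Gtl2 (now Meg3), Rian and Mirg, and most microRNAs of the region are cut from such transcripts, while Dlk1, Rtl1 and Dio3 are expressed from the paternal copy. MiR-337, miR-127 and miR-136 are encoded opposite to Rtl1, a gene derived from a retrotransposon that the placenta and fetal tissues need, and they match the Rtl1 messenger RNA perfectly. MiR-341 and miR-370 belong to the part of the region occupied by Rian. The maternal noncoding genes are known to be silenced in some mouse pluripotent stem cell lines. Before any of these microRNAs can act, its hairpin has to be cut out of the primary transcript by Drosha and its RNA-binding partner DGCR8.

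Ratios were measured on 2-colour arrays, each with the RNA of 1 group in 1 channel and that of wild-type V6.5 mouse embryonic stem (ES) cells in the other. The groups were ES cells of a first line with a homozygous DGCR8 knockout (2 arrays), those of a second such line (2 arrays), V6.5 ES cells with a heterozygous DGCR8 knockout (3 arrays) and irradiated mouse embryonic fibroblasts, the feeder layer on which ES cells grow (2 arrays). Per the series text both lines were independent, their arrays were duplicate hybridisations, the heterozygous RNA came from 2 preparations, and the ES cells were taken off the feeders before RNA was extracted. Replicate 2 of every group had its own RNA in the opposite dye.

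All values below are log2 ratios of own RNA over wild-type RNA, so that -1 is a halving, on the scale the authors set with added control RNAs. Own RNA over wild type is the likely direction rather than a stated one, since the series text names wild type as the reference. The arrays of a knockout line, of opposite dye, correlated across probes with r = 0.922 in line 1 and 0.912 in line 2, and the feeder arrays with 0.962, so in these 3 groups the arrays share 1 orientation. The heterozygous arrays correlated with each other at 0.467, 0.327 and -0.051, which does not show a shared orientation, and no marker checks the direction on them. Arrays held values for 84 to 133 probes. The markers listed for the cell types were chosen with earlier results of these data known, so they are no independent check. They read as labelled: the 8 tested ES cell probes of the mir-290 cluster were all lower in feeders (median -7.28). Of 12 listed fibroblast probes 3 could be tested, and all 3 were higher (median 3.49). The others had too few values in ES cells. On the 2 feeder arrays all 11 and 12 fibroblast probes with values lay above 0. The arrays carry no probe for Dgcr8 messenger RNA, so the knockout itself was not checked here.

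The sequences show how unlike each other these microRNAs are. RefSeq lists both arms of each hairpin on the plus strand of GRCm38.p6, and the probe names do not say which arm was measured, so both arms are given, in the order in which the hairpins follow each other along the chromosome. Capitals mark the seed, bases 2 to 8, with which a microRNA finds its targets.
mmu-miR-337-5p: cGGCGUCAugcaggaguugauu
mmu-miR-337-3p: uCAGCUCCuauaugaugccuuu
mmu-miR-127-5p: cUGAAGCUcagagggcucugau
mmu-miR-127-3p: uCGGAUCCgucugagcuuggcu
mmu-miR-341-5p: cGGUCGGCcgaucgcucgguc
mmu-miR-341-3p: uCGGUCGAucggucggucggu
mmu-miR-370-5p: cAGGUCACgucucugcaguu
mmu-miR-370-3p: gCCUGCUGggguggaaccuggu

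No seed is shared between them, and of the 8 arms only miR-370-5p has its seed in another mouse gene of the RefSeq table (miR-1193-3p). The arms of miR-341 hold 76.2% (5p) and 66.7% (3p) G and C, above 98% and 89.2% of the 1738 mature mouse entries. MiR-370-3p is as rich in them, with 68.2%, above 92.3% of the entries, while miR-127-3p has 59.1% and miR-337-3p 40.9%. The 5p arms of these microRNAs hardly differ, with 55.0% in miR-370-5p and 54.55% in both miR-127-5p and miR-337-5p. The letters CGGU occur 4 times in miR-341-3p, and 1 of the 1738 mature entries (0.0575%), miR-341-3p itself, holds them 3 times or more when only the strand as written is searched.

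The hairpins are shown because they are what DGCR8 and Drosha act on. Capitals mark the mature arms.
mir-337: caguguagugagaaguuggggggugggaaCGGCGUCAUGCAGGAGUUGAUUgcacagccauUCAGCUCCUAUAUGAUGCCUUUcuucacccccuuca
mir-127: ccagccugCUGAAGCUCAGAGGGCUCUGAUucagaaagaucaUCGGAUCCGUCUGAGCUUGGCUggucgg
mir-341: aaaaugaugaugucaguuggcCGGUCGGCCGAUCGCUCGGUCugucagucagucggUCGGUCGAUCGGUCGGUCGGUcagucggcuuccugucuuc
mir-370: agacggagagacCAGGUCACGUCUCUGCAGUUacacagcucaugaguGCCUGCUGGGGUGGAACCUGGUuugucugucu

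They lie at chr12:109585789-109585885 (mir-337), chr12:109592846-109592915 (mir-127), chr12:109611500-109611595 (mir-341) and chr12:109618258-109618336 (mir-370). In the annotation the first pair falls within the span of Rtl1 and the second within that of Rian, 25.7 and 32.5 kb beyond mir-337. The mir-341 hairpin holds CGGU 7 times, the highest number among 1005 mouse hairpins, and the other 3 hairpins do not hold it.

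The homozygous knockout asked how far these microRNAs depend on DGCR8. All 4 fell, but to very different depths: miR-127 and miR-337, opposite to Rtl1, to under 1% of wild type on average, miR-370 to 4.13% and miR-341 to 14.0%. When each array was instead centred on the median of its own mouse probes, miR-341 turned to 2.81 and miR-370 to 1.05. In a table where 89.7% of the 87 tested probes were called lower, 4 of 4 is near the background. What sets the 4 apart from each other is the size of the change. Signal over background is unknown, so how far the ratio of each probe could fall at most was not tested. The sizes are therefore no direct measure of how much each microRNA depends on DGCR8. In such bulk RNA, fewer cells with a microRNA and less of it per cell cannot be told apart.

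MiR-127, which cleaves the Rtl1 messenger RNA, had ratios of -7.59 and -6.91 in line 1 and -6.87 and -8.40 in line 2. These arrays held 0.521%, 0.83%, 0.855% and 0.297% of the wild-type signal, and the values of the lines overlap. The mean was -7.44 ± 0.27 (SD, n = 2 lines), a 174-fold reduction (limma, adjusted p = 4.39e-07), the 12th lowest of the 87. After centring it was still called lower (-1.80, adjusted p = 0.00172).

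MiR-337, its neighbour opposite to Rtl1, gave -6.44 and -7.43 in line 1 and -6.03 and -7.26 in line 2. Replicate 2 was the lower array in both lines, by 0.985 and 1.23, and the lines overlap. Its mean of -6.79 ± 0.21 (SD, n = 2 lines) is a 111-fold reduction (limma, adjusted p = 1.69e-06), also called lower after centring (-1.15, adjusted p = 0.00638). On 3 of the 4 arrays miR-337 lay above miR-127, by 0.84 to 1.14, and on replicate 2 of line 1 it lay below by 0.52.

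MiR-341 kept the most signal on average, with ratios of -3.37 and -1.25 in line 1 and -3.61 and -3.11 in line 2. The arrays of line 1 differed 4.36-fold, and replicate 2 of that line, at 42.2% of wild type, stood above the other 3, which held 8.19% to 11.6%. The mean was -2.83 ± 0.74 (SD, n = 2 lines), a 7.13-fold reduction on the control RNA scale (limma, adjusted p = 0.000138). After centring it was called higher than the array median (2.81, limma adjusted p = 0.00182). Without centring, leaving out single arrays kept the value between -3.36 and -2.30, called lower each time. Only 13 of the 87 tested probes had a higher ratio. In line 2 the means of miR-341 and miR-370 were close, at -3.36 and -3.43, so the lead of miR-341 over miR-370 rests on line 1.

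MiR-370 had -5.95 and -5.57 in line 1 and -3.58 and -3.28 in line 2. In line 1 these were 1.61% and 2.1% of wild type and in line 2 8.36% and 10.3%, so that the arrays of the lines did not overlap, although the difference between lines missed the threshold (limma, adjusted p = 0.0539), and the arrays of a line lay 1.30-fold and 1.23-fold apart. Its mean was -4.60 ± 1.65 (SD, n = 2 lines), a 24.2-fold reduction (limma, adjusted p = 0.000147), and after centring it lay at 1.05 with no call (adjusted p = 0.0865). The heterozygous arrays, which share in the spread behind the limma p, had an SD of only 0.12, so this p understates the spread between lines.

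**Figure D1:**
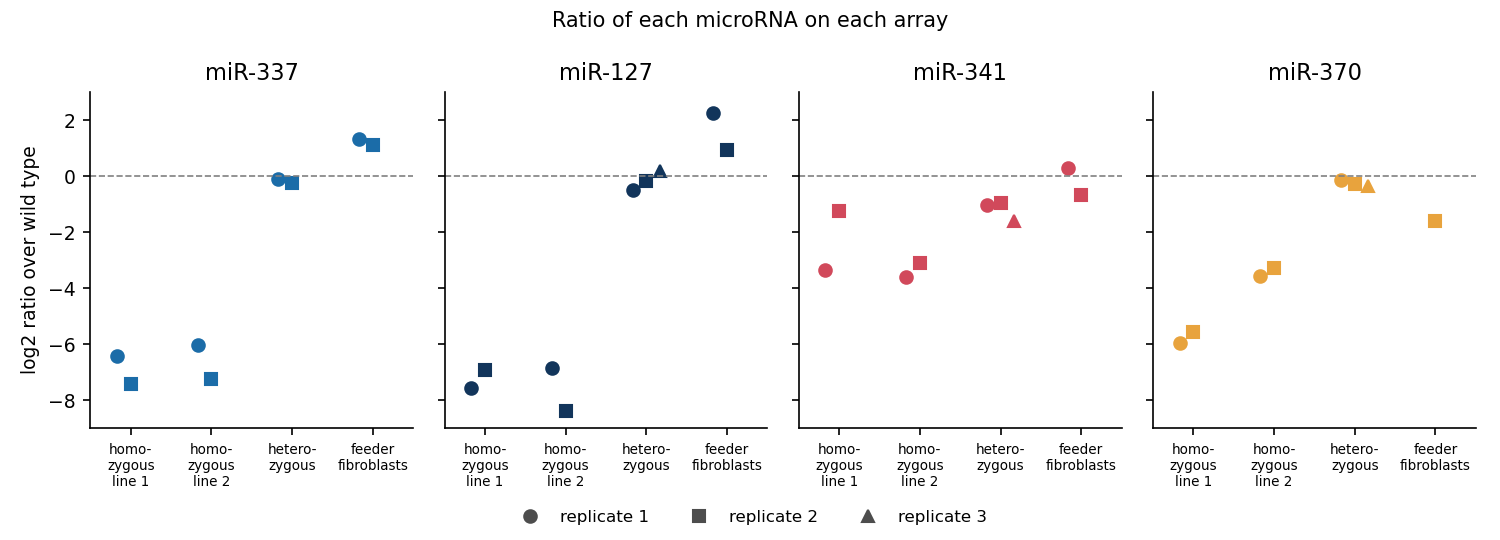
Log2 ratio over wild type (y axis; the dashed line at 0 is wild type) of miR-337, miR-127, miR-341 and miR-370 on each array, by group (x axis); each symbol is 1 array and its shape the replicate. In the homozygous lines miR-337 and miR-127 lie between -8.40 and -6.03 on all 4 arrays, miR-341 between -3.61 and -1.25 and miR-370 between -5.95 and -3.28. The means of miR-341 and miR-370 turn above 0 after centring, where 0 is the array median, miR-370 with no call.

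Differences between probes of 1 array do not depend on how the array is scaled. On all 4 knockout arrays both microRNAs of the Rian span lay above both of the Rtl1 span, with gaps between the nearest members of 0.49 and 1.34 in line 1 and of 2.42 and 3.98 in line 2. The microRNAs of the Rian span were themselves unlike in line 1, where miR-370 minus miR-341 was -2.58 and -4.33. In line 2 it was 0.03 and -0.17. MiR-341 exceeded miR-127 by 4.22 and 5.67 in line 1 and by 3.26 and 5.29 in line 2. In the heterozygous cells this difference had the other sign, -0.53, -0.78 and -1.76, and in feeders it was -1.95 and -1.59. The grouping by host gene follows the annotation, but it was set against the ratios after these had been seen, and it was not tested.

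The place of each microRNA among the other mouse probes of its array restates the same ratios as ranks, without a scale, and is no separate evidence. The probes with values differ from array to array, so these percentages are not taken over the same probes. MiR-127 ranked low in the knockout, with 3.85% to 22.4% of the other probes below it, and miR-337 had 10.4% to 44.4% below it. MiR-341 had 68.8% to 89.6% below it in the knockout but 0% to 6.02% in the heterozygous cells. MiR-370 had 52.2% and 48.8% below it in line 1 and 71.6% and 81.7% in line 2.

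**Figure D2:**
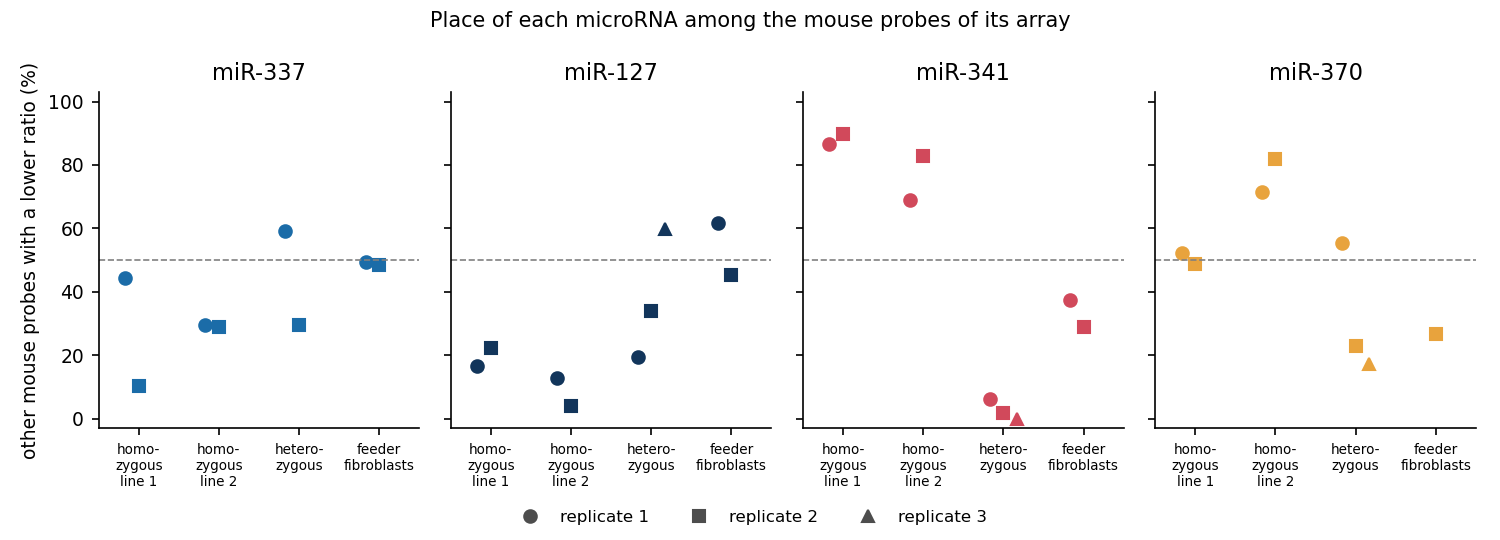
Percent of the other mouse probes of the same array with a lower ratio (y axis; dashed line at 50%) for miR-337, miR-127, miR-341 and miR-370, by group (x axis), 1 symbol per array. MiR-341 stands at 68.8% to 89.6% on the homozygous arrays and at 0% to 6.02% on the heterozygous ones.

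Line 2 was set against line 1 with the arrays as single values, a test that covers the spread between hybridisations. No member was called, and neither was any of the 87 probes (limma, 0% lower and 0% higher, with 2 and 11 at an unadjusted p under 0.05). MiR-370 came closest, 2.33 higher in line 2 than in line 1 (SE 0.46), or 5.04-fold, at an adjusted p of 0.0539, the lowest of the table. It was called without replicate 1 of line 2 (2.48, adjusted p = 0.0446) and without feeder replicate 1 (adjusted p = 0.00614), which enters through the shared spread. Over the other alternatives its difference lay above 0 each time, and its adjusted p over all alternatives ranged from 0.00614 to 0.204. The difference was -0.38 (SE 0.65) for miR-127, 0.29 (SE 0.58) for miR-337 and -1.05 (SE 0.69) for miR-341, with adjusted p of 0.816, 0.862 and 0.698. For miR-341 it was 0.01 without replicate 2 of line 1.

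The heterozygous cells asked whether 1 lost copy of DGCR8 matters for these microRNAs. None of the 4 passed the test, where limma called 0% of the 87 probes lower and 0% higher, and 5 lower and 2 higher had an unadjusted p under 0.05. MiR-341 stood apart from the other 3 by size: its ratios were -1.02, -0.98 and -1.59, or 49.3%, 50.8% and 33.3% of wild type. On replicate 3 none of the 82 other mouse probes was lower, on replicate 2 only 2 of 118 others were lower and on replicate 1 only 5 of 83. Its mean of -1.20 ± 0.34 (SD, n = 3 arrays) was the lowest of the 87 tested, at an unadjusted limma p of 0.00356 and an adjusted p of 0.31. All this rests on the likely direction: with the ratios turned, miR-341 would be 2.29-fold above wild type and the highest of the 87. The 3 arrays hold RNA of 2 preparations, and which arrays share one is not given in the labels, so n = 3 counts a repeat and the p is too small. With replicates 1 and 2 averaged miR-341 was at -1.29 (adjusted p = 0.978). It was called lower without replicate 2 of knockout line 1 (adjusted p = 0.0244), which changed the shared spread and not the ratio, and over all alternatives the adjusted p ranged from 0.0244 to 0.998.

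The other 3 held 71.5% to 112.5% of the wild-type signal on the heterozygous arrays. MiR-127 had -0.48, -0.19 and 0.17, with values on both sides of 0. MiR-337 had -0.11 and -0.25 and no value on replicate 3. MiR-370 had -0.13, -0.30 and -0.35, all below 0, with a mean of -0.26 ± 0.12 (SD, n = 3 arrays of 2 preparations) and an adjusted p of 0.887.

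All 4 were also lower in the homozygous than in the heterozygous knockout, a difference in which the level of wild type drops out while its measurement on each array does not, against a background of 90.8% of probes called lower. The differences were -7.27 for miR-127, -6.61 for miR-337, -4.34 for miR-370 and -1.64 for miR-341 (limma, adjusted p of 2.24e-06, 9.82e-06, 0.000816 and 0.00805). After centring miR-341 and miR-370 lay at 3.98 and 1.29. The 4 knockout arrays of miR-341 (-3.61 to -1.25) overlapped its heterozygous arrays (-1.59 to -0.98) through replicate 2 of line 1, whereas the other 3 microRNAs showed no overlap. Without replicate 1 of line 1, which leaves that array to stand for the line, the miR-341 difference was -1.11 and was not called (adjusted p = 0.167).

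**Figure D3:**
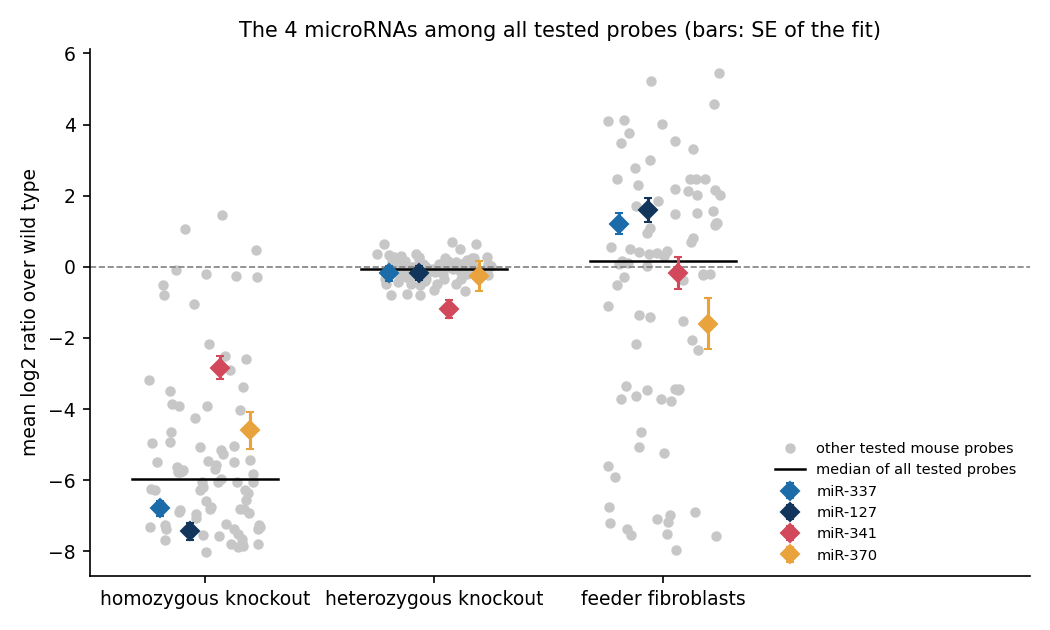
Mean log2 ratio over wild type (y axis) of the 4 microRNAs (diamonds, bars are the SE of the limma fit) among the other tested mouse probes (grey points, spread sideways at random) in the homozygous knockout, the heterozygous knockout and feeder fibroblasts. Black lines mark the median of all 87 tested probes (-5.98, -0.05 and 0.15). MiR-341 and miR-370 lie above this median in the knockout, where centring, which sets the array median to 0, turns both above 0. MiR-341 is the lowest point in the heterozygous cells.

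The feeder fibroblasts were profiled to learn whether their RNA adds to the signal seen in knockout cells. Here the pairs parted the other way: miR-127 and miR-337 were called higher in feeders than in wild-type ES cells and miR-341 and miR-370 were not, against a background of 36.8% of probes called higher and 36.8% lower. After centring, which moved the median of the feeder ratios by -1.19, none of the 4 was called higher, miR-337 lay at -0.03 (adjusted p = 0.92) and miR-127 at 0.34 (adjusted p = 0.418).

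MiR-127 had 2.25 and 0.93 in feeders, 475% and 190% of wild type. Its mean was 1.59 ± 0.93 (SD, n = 2 arrays, limma adjusted p = 0.00599), or 3.01-fold. In this comparison the SD is over the feeder arrays. The limma p takes its spread from the heterozygous arrays and knockout lines and leaves out the difference between the feeder arrays. MiR-337 had 1.33 and 1.10, with a mean of 1.22 ± 0.16 (SD, n = 2, adjusted p = 0.0146), or 2.32-fold. Both arrays were above 0 for each, and the call for miR-337 was lost without replicate 2 of knockout line 2 (adjusted p = 0.0539). MiR-341 lay on both sides of 0, at 0.30 and -0.66, with a mean of -0.18 ± 0.68 (SD, n = 2, adjusted p = 0.732).

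MiR-370 had a value on replicate 2 alone, -1.60 or 33.1% of wild type (adjusted p = 0.0917), with its spread borrowed from the other groups. It was called lower in feeders after centring (-2.75, adjusted p = 0.0125), without heterozygous replicate 2 (adjusted p = 0.0126) and without replicate 2 of knockout line 1 (adjusted p = 0.046). On both feeder arrays the measured members of the Rian span lay below those of the Rtl1 span, by 1.03 and 1.59 between the nearest members.

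The knockout was then compared with feeders themselves. All 4 were lower in the knockout than in feeders (limma, against 75.9% of all probes). The knockout signal was 0.192% of the feeder signal for miR-127 and 0.389% for miR-337, while it was 12.5% for miR-370 (feeder replicate 2 alone) and 15.9% for miR-341. The tested fibroblast markers miR-21 and miR-22 stood at 0.19% and 0.195%, and miR-31 at 0.977%. The 4 tested let-7 probes, which were higher in feeders, stood at 2.34% to 4.31%. In the knockout over wild type these 4 had a median of -0.23 and 1 was called lower, against 89.7% of all probes. Probes with values in both lines but too few heterozygous values were not tested. Among these miR-222 stood at 0.54%, miR-221 at 1.07%, let-7g at 0.691% and let-7d at 1.76% (feeder replicate 2 alone). With feeder replicate 1 alone the shares of miR-127, miR-337 and miR-341 were 0.121%, 0.36% and 11.4%, and with replicate 2 alone 0.303%, 0.42% and 22.2%. MiR-341 lost its call without replicate 1 of knockout line 1 (-2.12, adjusted p = 0.0807). After centring it turned to 4.24 and miR-370 to 3.80, both called higher in the knockout, as were 49 of the 87 tested probes, whose median was then 1.98. What part carried-over feeder RNA has in the remaining signal was not tested.

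Elsewhere in the region 16 probes were listed for microRNAs of the Mirg side, whose hairpins start 124 to 158 kb beyond mir-337. Of these 13 were tested, and all 13 were lower in the knockout (median -6.19, against -5.98 for all 87 tested probes). They ranged from miR-376a (-7.79) to miR-323 (-2.90), a range that holds miR-127, miR-337 and miR-370, with miR-341 (-2.83) just above it. With centred arrays 6 were called lower and 2 higher, against 33 lower and 25 higher of all 87. In the heterozygous cells none was called, 11 of the 13 were below 0, against 51 of all 87, and the median was -0.43, against -0.05 for all 87, from miR-381 (-0.79) to miR-376b (0.25). The 4 proximal microRNAs had a median of -0.22 there, and miR-341 lay below all 13. In feeders 3 of the 13 were lower and 4 higher (median 0.29, against 0.15 for all), from miR-323 (-3.36, 1 array) to miR-299 (2.17), and after centring 7 were lower and none was higher, against 43 lower and 12 higher of all 87.

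**Figure D4:**
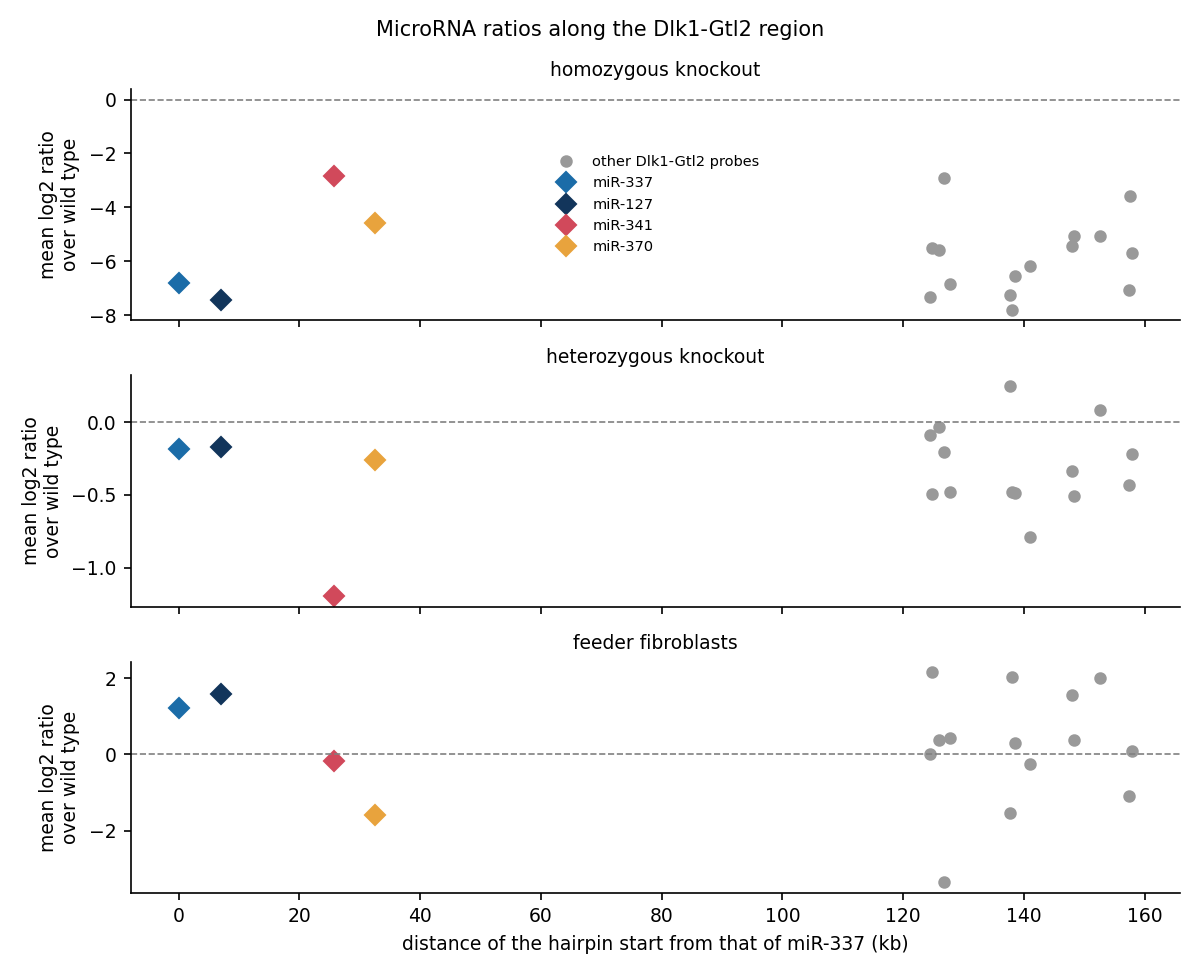
Mean log2 ratio over wild type (y axis) of each measured Dlk1-Gtl2 probe against the distance of its hairpin start from that of miR-337 in kb (x axis), in the homozygous knockout, the heterozygous knockout and feeder fibroblasts. Grey points are the other probes of the region, some with a value on 1 array of a group. In the knockout the 4 proximal microRNAs range from -7.44 to -2.83. MiR-341 and miR-370 turn above 0 after centring, where 0 is the array median.

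Likeness was measured as the root mean square difference of log2 ratios over the arrays on which a member had a value. Closest to miR-127 over 9 arrays were miR-16 (0.39), miR-103 (0.61) and miR-130a (0.70), where the median over 57 candidate probes was 2.45. Closest to miR-337 over 8 arrays were miR-103 (0.50), miR-107 (0.52) and miR-16 (0.60), and miR-127 came 6th of 59 (0.76). MiR-341 had no close match, with miR-423 (0.98), miR-191 (1.28) and miR-106b (1.66) nearest, and miR-127 came 37th of 57 (3.31). For miR-370 the nearest over 8 arrays were miR-298 (0.67), miR-106b (0.76) and miR-134 of the same region (1.05). MiR-341 came 28th of 62 for miR-370 (1.91). All these arrays share the wild-type reference, and the 4 knockout arrays, where ratios are largest, weigh most in the measure.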

How the data were processed

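Gel-purified small RNA was polyadenylated, given capture tails by ligation and labelled with the Ncode kit, per the labels' protocols. The deposited values are log ratios, taken here as log10, and the authors normalised the ratios on added control RNAs, per the series text. For the scanner, background correction and spot filter nothing is stated (not given in the sources used here). That the logs have base 10 was inferred: on 1 array, line 1 replicate 2, each of 90 low values turns back into a ratio of at most 4 decimals, where chance gives 3.84%. On the other arrays with low values the same check gave no support for base 10 (on knockout arrays 1 of 76, 2 of 68 and 4 of 75, on feeder arrays 0 of 12 and 0 of 17, on a heterozygous array 0 of 1), so there base 10 is assumed, and every fold and percentage rests on it. The deposited column of line 1 replicate 1 has other contents, spreadsheet errors, beside its ratios. Errors (3 cells in all) and null cells were taken as missing, and values were multiplied by 3.3219 to give log2 ratios.

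Of the 206 probes, 195 matched a mouse gene in RefSeq (GRCm38.p6), the source of all sequences. limma 3.58.1 (statmod 1.5.0, R 4.3.3) was fitted on 6 values per probe, namely the heterozygous arrays singly, 1 mean per knockout line and 1 feeder mean. The 87 probes tested had at least 2 heterozygous values, 1 value per line and 1 feeder value. Adjustment followed Benjamini and Hochberg over all 87, with a threshold of 0.05. Lines were compared over single arrays. The wild-type spread is left out, since wild type was only a reference, and the feeder spread is that of the other groups. No source describes the arrays of a group as separate cultures, so p-values may measure technical spread. The number of arrays limits the precision, and spot intensities were not analysed here. Every member is named, with its 3 most alike probes, and of other lists the lowest and highest. Members and lists were chosen with earlier results of these data known. The alternatives were centring, single arrays, random and replicate blocks, a dye term, averaged heterozygous replicates, missing-value filters and leaving out each array.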

Additional observations from a re-analysis of the deposited data

How the results depend on the processing

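Centring each array on the median of its mouse probes had the largest effect, since it moves the median of the knockout ratios by 5.64. In the knockout over wild type it turned miR-341 to 2.81 and miR-370 to 1.05, over heterozygous cells to 3.98 and 1.29, and over feeders to 4.24 and 3.80. In feeders over wild type it left miR-127 at 0.34, turned miR-337 to -0.0338 and brought miR-370 to -2.75, and for line 2 over line 1 it turned miR-337 to -0.15. Counts of probes with centring were 33 lower in the knockout over wild type (78 otherwise), 27 lower over heterozygous cells (79), 10 lower over feeders (66) and 12 higher in feeders over wild type (32). With probes measured on all 9 arrays 58 could be tested, and 19 were higher in feeders. Without a filter 1 probe was higher in the heterozygous cells (0 otherwise).

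Leaving out each array in turn gave these ranges where a call or sign changed. In the knockout over heterozygous cells miR-341 ranged from -2.17 to -1.11, and over feeders from -3.18 to -2.12. In the heterozygous cells miR-341 ranged from -1.30 to -0.999. In feeders miR-337 ranged from 1.10 to 1.33, miR-341 from -0.66 to 0.30 and miR-370 stayed at -1.60. For line 2 over line 1 miR-127 ranged from -1.15 to 0.38, miR-337 from -0.32 to 0.91, miR-341 from -2.11 to 0.0120 and miR-370 from 2.14 to 2.52. Counts ranged from 0 to 1 lower in the heterozygous cells, from 20 (without heterozygous replicate 2) to 37 (without feeder replicate 2) higher in feeders, and from 0 to 1 lower and 0 to 2 higher in line 2.

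Replicate numbers are shared between groups, but nothing says that they mark a shared batch. The difference of replicate 1 and 2 correlated between groups with r from 0.035 to 0.415 over 6 pairs of groups, all above 0 but not all above 0.1, and the number also marks the dye. With the replicate number as a block (replicates 1 and 2) miR-341 in the knockout over heterozygous cells was at -1.83 (adjusted p = 0.029) and miR-370 in line 2 over line 1 at 2.33 (adjusted p = 0.11), 78 probes were lower in the knockout, and no call of a member changed. Single arrays, a random block, a dye term, averaging heterozygous replicates 1 and 2, or other filters changed no call of a tested member. MiR-337 and miR-370 could not be tested with complete values, miR-337 not without heterozygous replicate 1 or 2, and miR-370 not when 2 feeder arrays were required or feeder replicate 2 was left out. Signal over background is unknown.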

Other observations

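MiR-323, a microRNA of the Mirg side, was the highest of its list in the knockout and the lowest in feeders. Its ratios were -2.90 and -3.31 in knockout line 1 and -2.39 and -3.02 in line 2, against 0.23, -0.39 and -0.44 in the heterozygous cells and -3.36 on the 1 feeder array with a value. The knockout signal of miR-323 was thus 137% of the feeder signal (0.46, SE 0.43, limma adjusted p = 0.359), where the other 12 tested microRNAs of that list were called lower in the knockout than in feeders, as were 66 of all 87 (75.9%). A p above the threshold does not show that its knockout and feeder levels are alike.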
